A study of Mus musculus with 9 samples.

Results

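Exosome biogenesis and tetraspanin genes were followed in HT22 cells, an immortalized neuronal line from the mouse hippocampus, after oxygen-glucose deprivation (OGD) and reoxygenation. The set was a list of 10 gene symbols, taken by name from the 54532 gene models of the expression table. It holds the tetraspanins Cd9, Cd63 and Cd81, the sorting genes Hgs, Tsg101, Pdcd6ip and Sdcbp, the neutral sphingomyelinase gene Smpd3, and the small GTPase genes Rab27a and Rab27b. The symbol Hgs stands on 2 gene models, so that 11 models were read. The rule goes by name and uses no measured value, though the members were chosen with earlier results of these data known.

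The 9 poly(A)-selected RNA-seq libraries fell into 3 groups of 3, all of them from wild type (WT) HT22 cells. OGE cells went through 2 h of OGD and then 24 h of reoxygenation with extracellular vesicles of mesenchymal stem cells made from human induced pluripotent stem cells (hiPS-MSC-EVs). OGP cells went through the same OGD and reoxygenation with PBS. Control cells were left without treatment, so that OGP and control differ in OGD, in reoxygenation and in handling together. The cell assays of the study used several vesicle doses, and neither the dose for the sequenced cells nor the serum present during reoxygenation is given separately. The paper speaks of biological replicates without naming separate cultures. If the libraries of a group shared a culture, the p-values measure only the spread between these libraries, which may be technical.

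Exosomes are small vesicles that form when the membrane of a late endosome buds inwards and the resulting multivesicular body fuses with the cell surface. Cargo is gathered by the ESCRT complexes, by the syndecan-syntenin-ALIX route, or on membrane rich in ceramide, and RAB27 proteins dock the multivesicular body at the plasma membrane. CD9, CD63 and CD81 lie in the vesicle membrane and are the usual surface markers by which such vesicles are recognised. All levels below are mRNA of the recipient cultures, read against the mouse genome, in FPKM (fragments scaled to gene length and library size). For the members this length is that of all annotated exons together, so an order of genes by FPKM depends on the annotation. The levels are not protein levels and not amounts of vesicle released. Whether RNA carried by the human vesicles added reads in OGE cells was not tested.

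Promoter sequence upstream of the gene start is printed for Cd9, Cd81 and Tsg101, since these are the members with an adjusted p of at most 0.05 in a comparison below whose promoter was read. RefSeq held a promoter for 7 of the members looked up, and Rab27b was not among those looked up. The windows are from GRCm38.p6, the build whose coordinates the expression table shares. They run 5′ to 3′ on the gene's strand and stop at the gene start, and capitals mark GC boxes (GGGCGG or its reverse complement) in Cd9 and Cd81 and the hypoxia response core (ACGTG or its reverse complement) in Tsg101.
Cd9, chr6:125494792-125495010, minus strand: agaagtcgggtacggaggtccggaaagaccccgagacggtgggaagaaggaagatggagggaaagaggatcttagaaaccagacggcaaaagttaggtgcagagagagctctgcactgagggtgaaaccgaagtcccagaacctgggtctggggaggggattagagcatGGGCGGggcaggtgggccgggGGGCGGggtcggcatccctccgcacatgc
Cd81, chr7:143052500-143052738, plus strand: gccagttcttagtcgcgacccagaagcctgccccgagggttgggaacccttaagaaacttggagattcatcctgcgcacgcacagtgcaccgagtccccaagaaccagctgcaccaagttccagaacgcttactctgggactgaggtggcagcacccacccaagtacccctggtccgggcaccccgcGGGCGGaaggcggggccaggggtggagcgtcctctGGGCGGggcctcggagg
Tsg101, chr7:46919970-46920219, minus strand: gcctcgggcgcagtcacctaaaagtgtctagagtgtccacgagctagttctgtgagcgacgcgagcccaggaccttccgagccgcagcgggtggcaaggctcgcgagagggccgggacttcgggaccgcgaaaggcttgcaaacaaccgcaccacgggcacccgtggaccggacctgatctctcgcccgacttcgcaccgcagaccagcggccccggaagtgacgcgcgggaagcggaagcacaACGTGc

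The Cd9 window of 219 bases and the Cd81 window of 239 bases held 2 GC boxes each. Among 32851 RefSeq promoters trimmed to the same lengths, 28.3% and 31.2% held at least 1 GC box. The Tsg101 window of 250 bases held 1 ACGTG and no GC box, and 16.6% of promoters of that length held ACGTG. The CCAAT box (CCAAT) and the E-box (CACGTG, which contains ACGTG) were searched on both strands as well and had no match in these 3 windows. A match is a description of the letters and not a binding site, and a motif without a match is only one whose letters are not in the window.

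The libraries held 15026700 to 19476806 reads in genes, recovered from the FPKM values, and mitochondrial genes took 2.03% to 2.90% of them in OGE cells, 2.45% to 3.25% in OGP cells and 1.10% to 2.31% in control cells, without overlap between OGP and control. On the third principal component control 1 (33.1) lay apart from control 2 (-15.0) and control 3 (-11.0), and OGE 3 lay at -19.4. Results are therefore given without these libraries wherever that ends the call of a listed gene named here. For members they are also given wherever that changes a call or the side of an adjusted p of 0.05. Of 11 neuron markers 3 (Tubb3, Map2 and Dlg4) averaged at least 0.5 FPKM, and Snap25, a defining synaptic gene, had at most 0.113 FPKM in any library. Of 6 mesenchymal markers 5 passed the same level. Their summed level was 372 to 436 FPKM in OGE cells, 382 to 451 FPKM in OGP cells and 656 to 971 FPKM in control cells, mostly Col1a1. None of the endothelial and oligodendrocyte markers averaged 0.5 FPKM, and the astrocyte and microglia lists were represented by Slc1a3 and Tmem119 alone. Several of these markers were called. Slc1a3 fell by 0.64 on the log2 scale in OGE against OGP cells, by 0.98 in OGP against control cells and by 1.62 in OGE against control cells. The first of these calls was lost without OGE 3, alone or together with control 1, without OGP 2 and with a pseudocount of 1. The summed astrocyte list was at 2.78 to 3.27 FPKM in OGE cells, 4.10 to 5.67 FPKM in OGP cells and 9.31 to 11.1 FPKM in control cells. Tmem119 fell by 0.90 in OGE against OGP cells and by 0.65 in OGE against control cells, the second call lost without control 3. The summed microglia list was at 9.02 to 10.2 FPKM in OGE cells, 16.5 to 19.0 FPKM in OGP cells and 12.2 to 17.4 FPKM in control cells. Nt5e of the mesenchymal list rose by 1.23 in OGE against OGP cells and had a fitted fold of 2.83 in OGE against control cells, also called, while Col1a1 fell by 1.00 in OGP against control cells and by 1.06 in OGE against control cells. Tubb3 rose by 0.78 in OGE against control cells, a call lost without control 1 and OGE 3 together. On adjusted p alone 1 of the 3 tested neuron markers was lower there, and the median log2 difference of the 3 was 0.03. The summed neuron list was at 17.8 to 21.9 FPKM in OGE cells, 16.4 to 17.6 FPKM in OGP cells and 12.5 to 16.2 FPKM in control cells. The part of these markers and of the mitochondrial share in the values of the exosome genes was not tested.

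The members covered a wide range of levels. Cd63 was the highest in each group, followed by Cd81 and then Cd9, and the ranges of these 3 genes did not overlap within any group. Tsg101, Pdcd6ip and Sdcbp came next, with ranges that overlapped in OGE cells and in control cells. In OGP cells they were in the order Sdcbp, Tsg101, Pdcd6ip without overlap. Rab27a, Rab27b and Smpd3 followed far below, in this order in each group and without overlap. Pdcd6ip, the lowest of the middle tier in OGE cells, had 19.2 times the FPKM of Rab27a there.

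**Figure D1:**
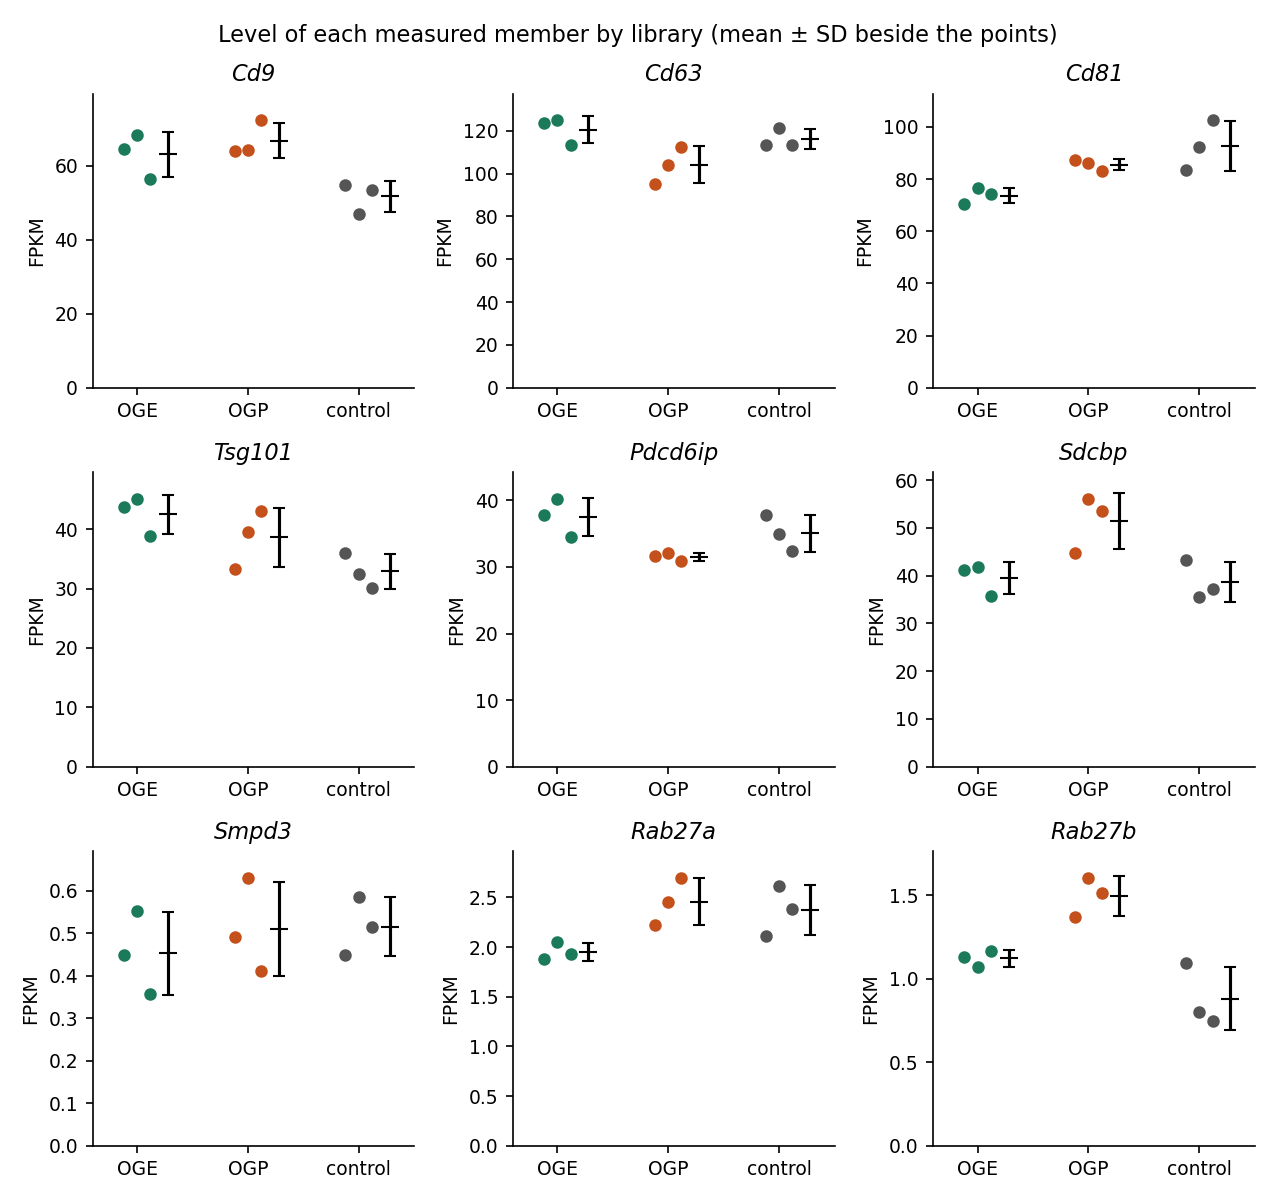
FPKM of the 9 measurable members (vertical axes, each from 0) in the 3 OGE, 3 OGP and 3 control libraries; each point is a library and the bar beside the points is the mean ± SD. Cd9 in OGE and OGP cells stands above control, Cd81 in OGE cells stands below the other groups, and Sdcbp and Rab27b in OGP cells stand above both.

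Changes were tested with limma on log2(FPKM + 0.5) over 13245 genes that averaged 0.5 FPKM or more. A gene counted as called if its fold reached 1.5 and its Benjamini-Hochberg adjusted p did not exceed 0.05. The level was reached by 8 of the 10 members, all but Smpd3 and Hgs. None of these 8 was called in any of the 3 comparisons. Over all genes, 8.12% were called between OGE and OGP cells (3.39% higher and 4.73% lower in OGE), 12.1% between OGP and control cells (6.38% higher and 5.74% lower in OGP), and 11.5% between OGE and control cells (5.14% higher and 6.33% lower in OGE). In bulk RNA, fewer cells with a transcript and less transcript per cell cannot be told apart.

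On adjusted p alone, without the fold, 1 member passed between OGE and OGP cells (Sdcbp, lower in OGE), against 20.8% of all genes, 10.6% higher and 10.2% lower. Between OGP and control cells 3 members passed, all of them higher in OGP cells (Cd9, Sdcbp and Rab27b), against 29.8% of all genes, 13.8% higher and 16.0% lower. Between OGE and control cells 2 members passed (Tsg101 higher and Cd81 lower in OGE cells), against 24.8% of all genes, 11.7% higher and 13.1% lower. At an unadjusted p under 0.05 the counts were 6, 3 and 3 of 8, against 34.7%, 41.7% and 37.0% of all genes in the same order of comparisons. The OGE and OGP libraries did not overlap for 6 of 8 members, with Cd63 and Pdcd6ip higher and Cd81, Sdcbp, Rab27a and Rab27b lower in OGE, against 45.4% of all genes (23.3% higher and 22.0% lower). The OGP and control libraries did not overlap for 5 of 8, with Cd9, Sdcbp and Rab27b higher and Cd63 and Pdcd6ip lower in OGP, against 42.9% of all genes (20.3% higher and 22.6% lower). The OGE and control libraries did not overlap for 4 of 8, with Cd9 and Tsg101 higher and Cd81 and Rab27a lower in OGE, against 38.2% of all genes (18.6% higher and 19.6% lower). The OGP libraries enter the first comparison as well as the second, and the control libraries enter the second as well as the third, so that the counts are not independent.

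The sizes of the differences were near those of genes at large. The median absolute log2 fold change of the 8 members was 0.23 between OGE and OGP cells, 0.19 between OGP and control cells and 0.23 between OGE and control cells. Over all tested genes it was 0.21, 0.25 and 0.22.

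**Figure D2:**
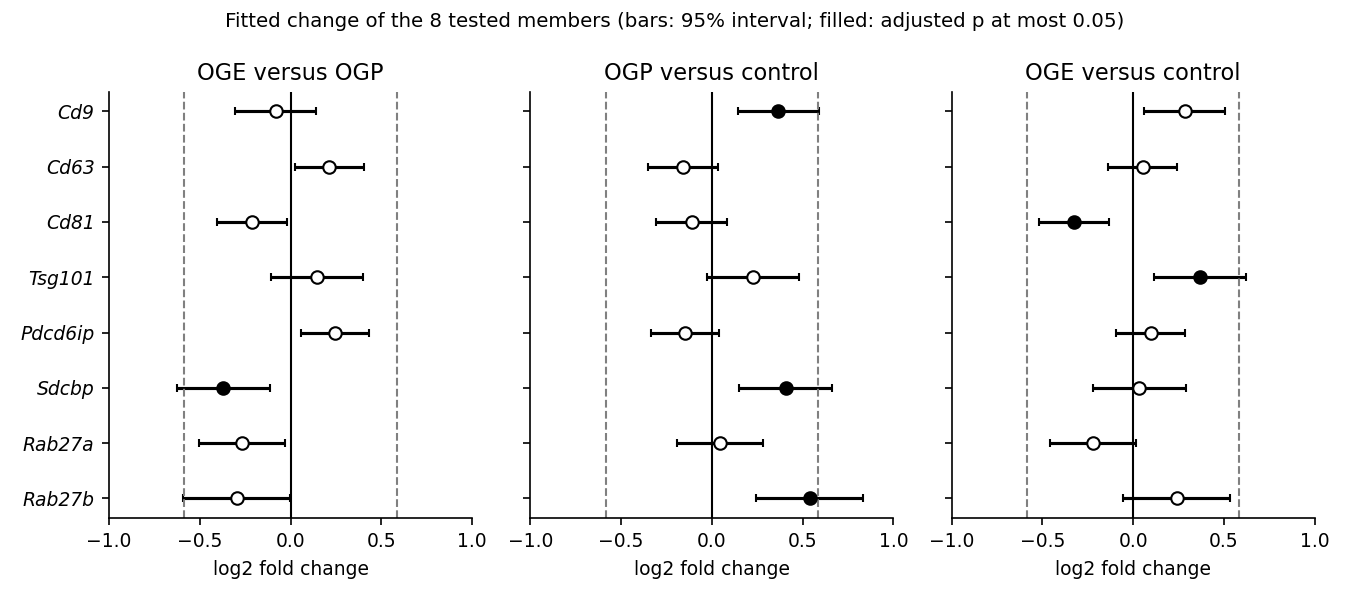
Fitted log2 fold changes (horizontal axes) of the 8 tested members in the 3 comparisons, with 95% intervals; filled points have an adjusted p of at most 0.05 and the dashed lines mark a fold of 1.5. All points lie inside the dashed lines, and the one nearest to them is Rab27b in OGP against control cells at 0.54.

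CD9 is a tetraspanin of the plasma membrane that organises integrins and immunoglobulin-type partners. Cd9 had 64.6, 68.2 and 56.4 FPKM in the OGE libraries, 63.8, 64.1 and 72.2 FPKM in the OGP libraries, and 54.7, 47.0 and 53.3 FPKM in the control libraries. All 6 libraries that had gone through OGD were above all 3 controls, while the ranges of OGE and OGP overlapped. OGP cells were higher than control cells by 0.37 on the log2 scale (SE 0.10, 95% interval 0.14 to 0.59, adjusted p = 0.0218 by limma), which is a fold of 1.29. OGE cells differed from control cells by 0.28 (interval 0.06 to 0.51, adjusted p = 0.0656) and from OGP cells by -0.08 (interval -0.31 to 0.14, adjusted p = 0.601). The OGE difference from control passed on adjusted p without control 1 (0.0359), without OGE 3 (0.0384), without both (0.0114), with voom and under quantile normalization. The OGP difference lost its adjusted p without control 2, OGP 2 or OGP 3, under quantile normalization and with the replicate number as a block, up to 0.0879. The Cd9 exons are overlapped over 10.7% of their bases by Gm26728 on the other strand. Smaller overlaps on the other strand cover 4.72% of Smpd3, 3.61% of Cd81 and 1.13% of Sdcbp. In Rab27a 3.84% is overlapped on the same strand by the processed pseudogene Gm27186.

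CD81 is a tetraspanin of the plasma membrane, known as an entry receptor of hepatitis C virus in human cells. Cd81 had 70.4, 76.4 and 74.3 FPKM in OGE cells, 87.3, 86.0 and 83.2 FPKM in OGP cells, and 83.4, 92.2 and 103 FPKM in control cells. The OGE libraries were the 3 lowest of the 9, and OGP and control overlapped. OGE cells were lower than control cells by a log2 difference of -0.33 (SE 0.09, 95% interval -0.52 to -0.13, adjusted p = 0.0231 by limma). Against OGP cells the difference was -0.21 (interval -0.41 to -0.02, adjusted p = 0.113), and OGP cells differed from control cells by -0.11 (adjusted p = 0.360). The adjusted p between OGE and control stayed at or under 0.05 in 15 of 21 alternative settings. It was lost without control 2, control 3, OGE 1 or OGE 3, under quantile normalization and with the 6 libraries alone, up to 0.111. The difference between OGE and OGP passed without control 1 (adjusted p = 0.0367) and with the 6 libraries alone. Over the 21 settings it ranged from -0.24 to -0.03, with an adjusted p of up to 0.796.

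CD63 is the tetraspanin of late endosomes and lysosomes and the classic exosome marker. Cd63 had 123, 125 and 113 FPKM in OGE cells, 95.3, 104 and 113 FPKM in OGP cells, and 113, 121 and 113 FPKM in control cells. The highest OGP library stood just under the lowest library of either other group, so that OGP did not overlap with them, while OGE and control overlapped. The log2 difference was 0.21 between OGE and OGP cells (95% interval 0.02 to 0.40, adjusted p = 0.107), -0.16 between OGP and control cells (adjusted p = 0.186) and 0.05 between OGE and control cells (adjusted p = 0.687). None of them passed the test. On adjusted p alone the first passed under quantile normalization (0.38, adjusted p = 0.00863) and without control 1 and OGE 3 together (0.26, adjusted p = 0.0489), and it was not called in either.

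A processed pseudogene of Cd63 carries reads that could belong to the parent gene. Cd63-ps, a single model of 875 bases on chromosome 18 (50134726 to 50135600), had 47.8 to 71.3 FPKM over the 9 libraries, and its reads made up 9.79% to 13.0% of those of both models. With the reads of both summed, an alternative chosen after seeing the data, Cd63 differed by 0.24 between OGE and OGP cells (adjusted p = 0.0651), and the other differences stayed uncalled as well. How many of the pseudogene's reads came from Cd63 was not tested.

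The summed tetraspanin mRNA overlapped between groups, while the shares of its 3 genes separated in part. Ratios and shares of this kind were chosen after the values were seen. The summed FPKM of Cd9, Cd63 and Cd81 was 257 ± 12.9 in OGE cells, 256 ± 10.9 in OGP cells and 260 ± 8.96 in control cells (SD, n = 3 each), with ranges that overlapped. Cd9 made up 24.5% ± 1.19 of it in OGE cells, 26.0% ± 0.877 in OGP cells and 19.9% ± 1.86 in control cells. Cd63 made up 46.8% ± 0.804 in OGE cells, 40.6% ± 1.70 in OGP cells and 44.6% ± 2.27 in control cells. Cd81 made up 28.7% ± 1.65 in OGE cells, 33.4% ± 2.22 in OGP cells and 35.6% ± 2.45 in control cells. Both OGE and OGP lay above control in the Cd9 share without overlap, OGP lay below the others in the Cd63 share, and OGE lay below the others in the Cd81 share. The gap in the Cd63 share was small, at 42.0% in OGP 3 against 42.1% in control 3. That in the Cd81 share was small as well, at 30.5% in OGE 3 against 31.0% in OGP 3. Each of these separations had an exact two-sided permutation p of 0.1, the smallest possible. The shares leave out the reads of Cd63-ps. With those reads added, Cd63 was at 126 FPKM in both OGP 3 and control 3. The small gap between OGP and control in the Cd63 share is thus not secure against the choice of reads.

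The ratio of Cd81 to Cd9 was 1.09, 1.12 and 1.32 in the OGE libraries, 1.37, 1.34 and 1.15 in the OGP libraries, and 1.53, 1.96 and 1.92 in the control libraries. Every library after OGD lay below every control. The exact two-sided permutation p was 0.1 for OGE against control and for OGP against control, which is the smallest that 3 against 3 libraries can give, and 0.2 for OGE against OGP. The ratio of Cd63 to Cd81 averaged 1.64 ± 0.116 in OGE cells, 1.22 ± 0.131 in OGP cells and 1.26 ± 0.135 in control cells, and OGE cells did not overlap with either of the others (exact p = 0.1 each).

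**Figure D3:**
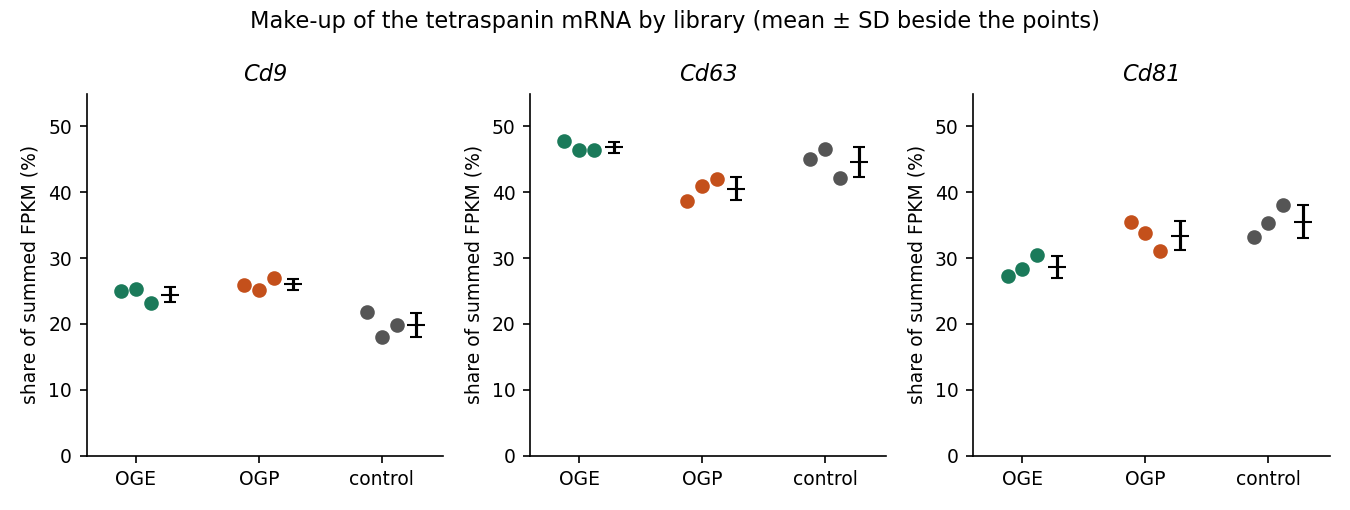
Share of Cd9, Cd63 and Cd81 in the summed FPKM of the 3 genes (vertical axes, percent) in each OGE, OGP and control library, with the mean ± SD beside the points. The Cd9 share is lowest in control cells at 19.9%, the Cd63 share lowest in OGP cells at 40.6% and the Cd81 share lowest in OGE cells at 28.7%.

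Other tetraspanins were read from a list of 28 genes, of which 13 reached the tested level. Cd151, a laminin-integrin partner, was the highest of them at a mean of 77.6 FPKM, and Tspan10 had no read in any library. Between OGE and OGP cells 2 of the 13 fell and none rose. Cd82, a tetraspanin described as a suppressor of metastasis, had 14.1, 13.6 and 15.8 FPKM in OGE cells and 24.6, 22.0 and 22.5 FPKM in OGP cells, a log2 change of -0.65 (adjusted p = 0.00292 by limma). Tspan13 changed by -0.66, a call lost without OGE 3 or with a pseudocount of 1 (log2 values of -0.83 to -0.53 over the alternatives). Between OGP and control cells only Tspan9 of the 13 was called. It had 14.5, 13.2 and 15.6 FPKM in OGE cells, 21.3, 17.6 and 16.6 FPKM in OGP cells and 27.3, 34.4 and 36.0 FPKM in control cells. Tspan9 fell by 0.80 on the log2 scale in OGP against control cells and by 1.14 in OGE against control cells, where it was again the only one called. The median log2 difference of the 13 genes was -0.30 in OGE against OGP cells, 0.09 in OGP against control cells and -0.26 in OGE against control cells. Over all genes these medians were 0.00, 0.01 and -0.00.

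Among the partners through which tetraspanins act, all 7 listed genes were tested. In OGE against OGP cells 1 rose and 1 fell, in OGP against control cells 2 fell, and in OGE against control cells 1 fell. Igsf8 and Ptgfrn encode the immunoglobulin-type proteins that bind CD9 and CD81 directly. Igsf8 had 13.8, 14.1 and 18.7 FPKM in OGE cells, 14.0, 10.6 and 10.3 FPKM in OGP cells, and 16.1, 29.7 and 28.9 FPKM in control cells. It fell by 1.03 on the log2 scale in OGP against control cells (adjusted p = 0.0102 by limma), and control 1 lay close to the OGP range.

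Igsf3 of the same family had 3.58, 3.89 and 4.42 FPKM in OGE cells, 2.85, 2.94 and 2.95 FPKM in OGP cells, and 6.52, 7.61 and 6.81 FPKM in control cells. It fell by 1.13 in OGP against control cells and by 0.75 in OGE against control cells, without overlap between any groups. Ptgfrn had 24.9, 26.9 and 25.4 FPKM in OGE cells, 16.6, 15.0 and 14.4 FPKM in OGP cells and 20.2, 22.8 and 24.2 FPKM in control cells. Its level rose by 0.73 in OGE against OGP cells (adjusted p = 5.64e-04), and the OGP libraries were the 3 lowest. Itga3, an integrin subunit, changed by -0.59 in OGE against OGP cells, at the edge of the fold, and kept its call in 15 of 21 settings, not without OGP 1, OGE 1 or OGE 2, with a pseudocount of 1, with voom or under quantile normalization. Itgb1, the highest partner at a mean of 239 FPKM, was uncalled throughout.

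HGS (HRS) starts the ESCRT pathway by binding ubiquitinated cargo on endosomes. Its values cannot be read as a level here. The model ENSMUSG00000025793 (chromosome 11, 120467635 to 120483979) was listed at 0, 0.0396 and 0 FPKM in OGE cells, 0.0678, 0 and 0 FPKM in OGP cells, and 0 in all control libraries. The model ENSMUSG00000116045, which ends at 120483984, was listed at 0 throughout. The models lie on the same strand and share 97.2% and 99.6% of their exonic bases with each other. Vps25, an ESCRT-II subunit that shares 67.2% of its exonic bases with Ramp2 on the same strand, was likewise near 0, with 3 to 9 reads a library. Whether reads in such shared exons were left out in counting was not tested.

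TSG101 is the ESCRT-I subunit that takes over cargo from HRS. Tsg101 had 43.8, 45.0 and 38.8 FPKM in OGE cells, 33.2, 39.6 and 43.0 FPKM in OGP cells, and 36.0, 32.4 and 30.1 FPKM in control cells. Each OGE library was above each control, and the OGP libraries spread over both ranges. OGE cells were higher than control cells by 0.37 on the log2 scale (SE 0.11, 95% interval 0.11 to 0.62, adjusted p = 0.0410 by limma). The differences of OGE from OGP cells (0.14, adjusted p = 0.406) and of OGP from control cells (0.22, adjusted p = 0.164) did not pass. The adjusted p of the first was lost without control 2, control 3, OGP 2, OGE 1 or OGE 2, up to 0.138, with no filter on low genes, and with the replicate number as a block (0.0832).

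Pdcd6ip encodes ALIX, the adaptor that links syntenin and TSG101 to ESCRT-III. It had 37.8, 40.2 and 34.4 FPKM in OGE cells, 31.6, 32.0 and 30.9 FPKM in OGP cells, and 37.8, 34.9 and 32.4 FPKM in control cells. The OGP libraries were the 3 lowest and lay close together, and OGE and control overlapped. The log2 difference was 0.24 between OGE and OGP cells (95% interval 0.06 to 0.43, adjusted p = 0.0689), -0.15 between OGP and control cells (adjusted p = 0.212) and 0.10 between OGE and control cells (adjusted p = 0.448). On adjusted p alone the first passed in 5 of 21 settings, namely without control 1 (0.0304), without control 1 and OGE 3 together (0.0114), with the 6 libraries alone, with voom and under quantile normalization. The third passed without control 1 and OGE 3 together (0.21, adjusted p = 0.0454).

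The ratio of Tsg101 to Pdcd6ip was nearly constant within OGE and within control cells. It was 1.16, 1.12 and 1.13 in the OGE libraries, 1.05, 1.23 and 1.39 in the OGP libraries and 0.952, 0.929 and 0.931 in the control libraries. No library after OGD reached down to the controls (exact two-sided permutation p = 0.1 for either comparison with control, the smallest possible).

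The other ESCRT genes were measured almost in full, with 26 of 27 at the tested level. None of the 26 was called in any comparison. On adjusted p alone 4 passed between OGE and OGP cells (2 in each direction), 2 between OGP and control cells (both higher) and 4 between OGE and control cells (2 in each direction). Of all genes 20.8%, 29.8% and 24.8% passed in the same order of comparisons. Chmp4b, the ESCRT-III subunit that forms the constricting filament, was the highest at 97.9 to 103 FPKM in OGE cells, 118 to 125 FPKM in OGP cells and 106 to 148 FPKM in control cells. Its paralog Chmp4c was the lowest tested, at 0.912 to 1.20 FPKM over all libraries. The median log2 difference of the 26 genes was 0.01 between OGE and OGP cells, -0.04 between OGP and control cells and -0.04 between OGE and control cells.

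Sdcbp encodes syntenin, a PDZ protein that ties the tails of syndecans to ALIX. It had 41.2, 41.8 and 35.7 FPKM in OGE cells, 44.7, 56.0 and 53.6 FPKM in OGP cells, and 43.3, 35.4 and 37.3 FPKM in control cells. Every OGP library was above every library of the other groups, whose ranges overlapped with each other. The gap was small for OGP 1, at 44.7 against 43.3 FPKM in control 1.

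OGP cells were higher in Sdcbp than control cells by 0.41 on the log2 scale (SE 0.11, 95% interval 0.15 to 0.66, adjusted p = 0.0259 by limma). OGE cells were lower than OGP cells by a log2 difference of -0.37 (SE 0.11, interval -0.63 to -0.11, adjusted p = 0.0474), and the value for OGE against control cells was 0.03 (interval -0.22 to 0.29, adjusted p = 0.859). Both differences rest on the same OGP libraries. The adjusted p of the first stayed at or under 0.05 in 14 of 21 settings and that of the second in 11 of 21. Leaving out OGP 2, OGP 3 or control 3 lost either, leaving out control 2 lost the first, and leaving out any OGE library lost the second, up to 0.168. With the replicate number as a block the adjusted p was 0.0556 for the first and 0.0919 for the second. Either was lost with no filter on low genes as well, the first with the 6 libraries alone, and the second under quantile normalization and without control 1 and OGE 3 together (0.0530).

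Of the 4 syndecan genes, whose products syntenin binds, 3 were called in OGP against control cells. Sdc1, the cell-surface heparan sulfate proteoglycan syndecan-1, had 46.6, 52.4 and 50.6 FPKM in OGE cells, 26.3, 25.2 and 24.2 FPKM in OGP cells, and 54.7, 66.6 and 70.0 FPKM in control cells. It rose by 0.97 in OGE against OGP cells (adjusted p = 2.18e-04 by limma) and fell by 1.31 in OGP against control cells (adjusted p = 4.74e-05). The 3 groups did not overlap, and OGE stood between the others.

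Sdc4, the syndecan of focal adhesions, had 71.2, 81.6 and 77.9 FPKM in OGE cells, 52.7, 51.3 and 54.7 FPKM in OGP cells, and 85.1, 105 and 95.4 FPKM in control cells. It fell by 0.84 in OGP against control cells, while OGE cells were 0.53 above OGP cells with an adjusted p of 0.00404 and a fold under 1.5. Sdc3 fell by 0.83 in OGP against control cells and by 0.68 in OGE against control cells. The second was lost without OGE 2 and with a pseudocount of 1. Sdc2 was uncalled. Sdcbp in the same OGP libraries was at its highest, as given above, while 3 of the 4 syndecans there were called lower than control.

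The remaining genes of this route, Arf6, Pld2, Src and the heparanase gene Hpse, were not called. Hpse, whose product trims heparan sulfate chains of syndecans, had 14.4 to 14.9 FPKM in OGE cells, 21.0 to 21.7 FPKM in OGP cells and 18.1 to 18.7 FPKM in control cells. Its groups did not overlap, with a log2 difference of -0.52 between OGE and OGP cells that kept under the fold. Of the 8 genes of the list, 1 rose between OGE and OGP cells, 3 fell between OGP and control cells and 1 fell between OGE and control cells.

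Smpd3 encodes neutral sphingomyelinase 2, which makes ceramide at the endosome and is the target of the exosome inhibitor GW4869. It had 0.450, 0.553 and 0.357 FPKM in OGE cells, 0.492, 0.630 and 0.411 FPKM in OGP cells, and 0.449, 0.586 and 0.514 FPKM in control cells, from 29 to 54 reads a library. Its mean of 0.494 FPKM fell just short of the tested level, and Rab27b at a mean of 1.16 FPKM was the nearest member above it. All 3 groups overlapped. The exact two-sided permutation p was 0.6 for OGE against OGP, 1.0 for OGP against control and 0.5 for OGE against control. Counting error alone was 13.6% to 18.6% of its value in a library.

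All 10 listed genes of ceramide and sphingomyelin metabolism were tested. Sgms2, a sphingomyelin synthase, had 5.68, 6.70 and 6.22 FPKM in OGE cells, 4.92, 4.78 and 4.80 FPKM in OGP cells and 3.65, 3.58 and 3.56 FPKM in control cells. It rose by 0.71 in OGE against control cells (adjusted p = 2.43e-04 by limma), with no overlap between any groups, and was the only call of the list in the 3 comparisons. Cers2, a ceramide synthase and the highest of the list at a mean of 59.4 FPKM, and Sgms1, the lowest at 3.51 FPKM, were uncalled.

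RAB27A and RAB27B place multivesicular bodies at the cell surface for fusion. Rab27a had 1.88, 2.06 and 1.93 FPKM in OGE cells, 2.23, 2.45 and 2.69 FPKM in OGP cells, and 2.11, 2.61 and 2.39 FPKM in control cells. The OGE libraries were the 3 lowest of the 9, from 116 to 172 reads a library over all groups. The log2 difference was -0.27 between OGE and OGP cells (95% interval -0.50 to -0.03, adjusted p = 0.105), 0.04 between OGP and control cells (adjusted p = 0.782) and -0.22 between OGE and control cells (adjusted p = 0.159), and none passed.

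Rab27b had 1.13, 1.07 and 1.16 FPKM in OGE cells, 1.37, 1.60 and 1.51 FPKM in OGP cells, and 1.09, 0.800 and 0.745 FPKM in control cells. Every OGP library was above every other one. The OGE range reached down to control 1 and lay above control 2 and control 3. OGP cells were higher than control cells by 0.54 on the log2 scale (SE 0.13, 95% interval 0.24 to 0.83, adjusted p = 0.0142 by limma), a fold of 1.45 and thus the nearest of all member differences to the fold of 1.5. The log2 difference was -0.30 between OGE and OGP cells (interval -0.59 to -0.0029, adjusted p = 0.140) and 0.24 between OGE and control cells (adjusted p = 0.220).

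The call of Rab27b between OGP and control cells depended on the scale. A pseudocount of 0.5 FPKM is large beside a level of 1 FPKM and shortens a log2 fold change. The ratio of mean FPKM was 1.70. With a pseudocount of 0.1 FPKM the log2 value was 0.72 (adjusted p = 0.0153), and with voom of limma on the recovered reads it was 0.79 (adjusted p = 0.00183), both called. It was called as well without control 1 (0.65, adjusted p = 0.00481), the control library nearest to OGP. Leaving out control 3 or OGP 2 ended the pass on adjusted p, up to 0.0591.

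Rab27a and Rab27b were also compared by their ratio, a kind of measure chosen after the values were seen. The ratio of Rab27a to Rab27b was 1.66, 1.93 and 1.65 in the OGE libraries, 1.63, 1.53 and 1.78 in the OGP libraries, and 1.93, 3.27 and 3.20 in the control libraries. Control 1 stood only just above the highest OGE library, at 1.93 for both. Counting error alone was 7.62% to 9.28% of the Rab27a value and 5.88% to 8.30% of the Rab27b value in a library. The exact two-sided permutation p against control was 0.1 for OGE and for OGP, the smallest possible.

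Most of the proteins through which RAB27 acts had mRNA below the tested level. Of 12 listed effectors and regulators 3 reached the tested level, namely Sytl2, Madd and Tbc1d10a. Sytl5 and Rph3a had no read in any library, and Sytl4, which encodes the RAB27A effector granuphilin, had at most 0.0357 FPKM. Sytl2, the gene of synaptotagmin-like protein 2, had 3.01, 3.34 and 2.93 FPKM in OGE cells, 2.57, 2.46 and 2.24 FPKM in OGP cells, and 9.36, 7.60 and 8.03 FPKM in control cells. It fell by 1.59 in OGP against control cells (adjusted p = 1.68e-05 by limma) and by 1.29 in OGE against control cells (adjusted p = 2.64e-05), and held both calls in all 21 settings. Its level in OGE cells was above that in OGP cells in every library, by 0.30 with an adjusted p of 0.0627. Tbc1d10a, a GTPase-activating protein for RAB27A and the highest of the list at a mean of 16.1 FPKM, and Madd, its exchange factor, were uncalled.

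Of 14 genes for docking and fusion of vesicles all were tested and none was called in any comparison. They include the late endosomal Rab7, the highest at a mean of 96.7 FPKM, and Rab11b, the lowest at 13.5 FPKM. On adjusted p alone 1 passed between OGE and OGP cells, 2 between OGP and control cells and 3 between OGE and control cells. The shares of all genes were 20.8%, 29.8% and 24.8% in this order.

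Among 8 genes of common vesicle cargo or of control proteins, Anxa5, which encodes the phosphatidylserine-binding annexin A5, had 223, 233 and 234 FPKM in OGE cells, 267, 286 and 295 FPKM in OGP cells, and 162, 170 and 162 FPKM in control cells. It rose by 0.78 in OGP against control cells (adjusted p = 1.34e-04 by limma), and no groups overlapped. Lgals3bp, a secreted glycoprotein gene, had 95.6, 105 and 89.0 FPKM in OGE cells, 159, 131 and 145 FPKM in OGP cells, and 161, 160 and 153 FPKM in control cells. It fell by 0.71 in OGE against control cells (adjusted p = 6.62e-04). Hspa8 was the highest of the list at a mean of 573 FPKM and Flot1 the lowest at 25.4 FPKM. Canx, the gene of the endoplasmic reticulum protein calnexin that serves as a negative vesicle marker, was uncalled.

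**Figure D4:**
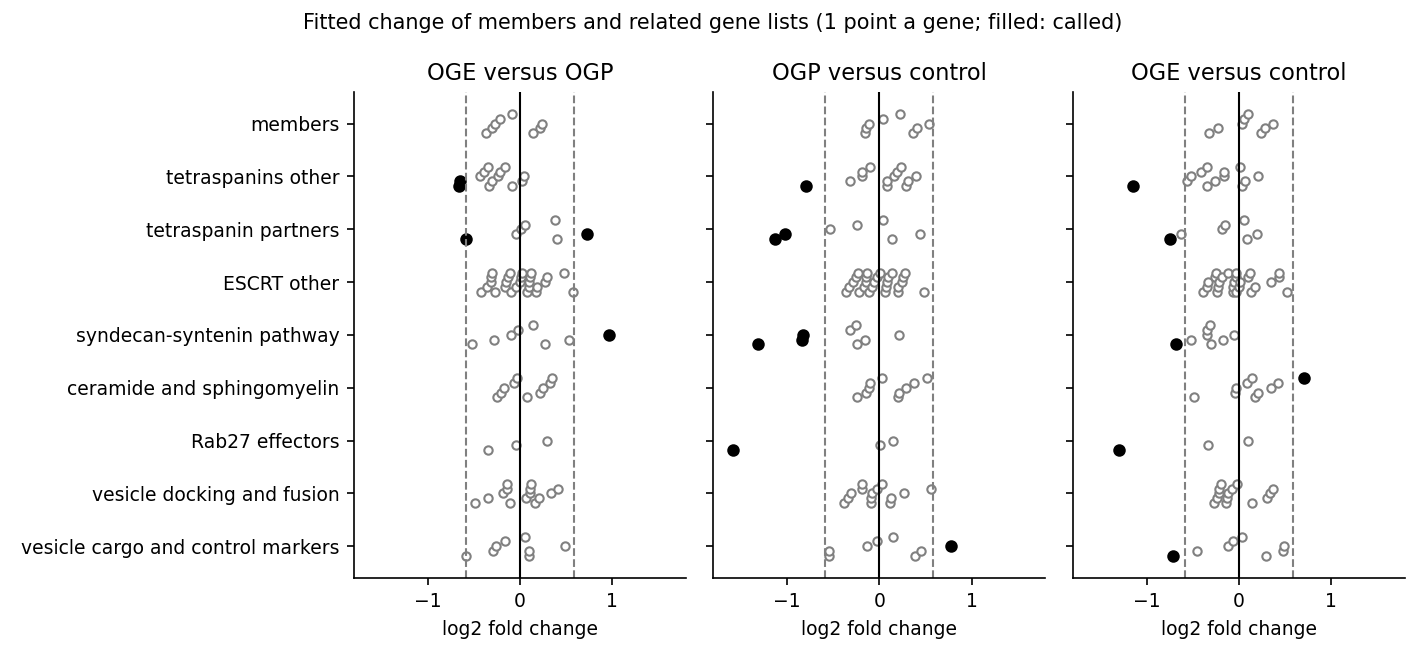
Fitted log2 fold changes (horizontal axes) of the 8 tested members and of the tested genes of 8 related lists in the 3 comparisons; each point is a gene, filled where called, and the dashed lines mark a fold of 1.5. The members, the other ESCRT genes and the docking and fusion genes have no filled point, and the farthest filled points to the left are Sytl2 at -1.59 and -1.29 and Sdc1 at -1.31.

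Genes whose pattern over the 9 libraries was most like that of the member with the largest difference were found by the root mean square (RMS) difference of centred log2(FPKM + 0.5) values. For Sdcbp, the largest between OGE and OGP cells, they were Shcbp1, Idh1 and Eif4a2, at an RMS difference of 0.05 each. For Rab27b, the largest between OGP and control cells, they were Gstz1, Nifk and Gin1 at 0.06 to 0.07. For Tsg101, the largest between OGE and control cells, they were Ofd1, Sirt1 and Pigw at 0.06 each. Idh1, the cytosolic NADP-dependent isocitrate dehydrogenase gene, averaged 49.3 FPKM in OGE cells, 64.2 FPKM in OGP cells and 45.6 FPKM in control cells, next to 39.6, 51.4 and 38.7 FPKM for Sdcbp in the same order of groups.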

How the data were processed

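Total RNA of 9 HT22 libraries was poly(A)-selected and sequenced in paired ends. The authors aligned the reads with HISAT2 2.0.5 to mm10, counted them per gene with featureCounts, and deposited FPKM for each library; the tool for FPKM and the use of strand are not stated. Reads were recovered from FPKM and gene length, which came out whole (within 0.1) for 100% of values and gave 15026700 to 19476806 reads in genes per library. A member with 29 to 54 reads thus carries more counting error than Cd63 with 6283 to 8108.

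The test was limma 3.58.1 (R 4.3.3) on log2(FPKM + 0.5), fitted to all 9 libraries as 3 groups with a trended prior variance, over the 13245 genes that averaged 0.5 FPKM or more. Adjustment followed Benjamini and Hochberg over all of these. Fold changes are on that scale, which understates changes of low genes. The authors' fold of 1.5 and adjusted p of 0.05 were used. Sums, shares and ratios of FPKM were compared with exact permutation tests. The test was run on simulated data first. Members and lists were chosen with earlier results of these data known. Text names all members, up to 4 called genes of each list per comparison by p, list genes at the extremes of level, and the 3 nearest patterns. Gene spans and overlaps came from GENCODE M21. Alternatives were other pseudocounts, filters, folds, scalings, a robust variance, voom, 6 libraries, a replicate block, protein-coding genes alone, and leaving out libraries. The animal experiments and cell assays were not analysed here.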

Additional observations from a re-analysis of the deposited data

How the results depend on the processing

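Of the members only Rab27b was called under any alternative setting that kept the fold of 1.5. Between OGP and control cells the count of called members was 1 (Rab27b) with a pseudocount of 0.1, with voom, without control 1 and OGE 3 together, and without control 1 alone, so that it ranged from 0 to 1 over the fits that leave out a library. With no fold threshold 1, 3 and 2 members passed in OGE against OGP, OGP against control and OGE against control, and 2750, 3941 and 3287 of all genes. With a fold of at least 2, 393, 436 and 530 of all genes were called. Signs turned only for differences that were not called: Cd9 in OGE against OGP to 0.087 under quantile normalization, and others when a library was left out. Rab27a in OGP against control ranged from -0.022 (without control 1, with or without OGE 3) to 0.10, Sdcbp in OGE against control from -0.025 (without control 2) to 0.12, and Smpd3 in OGP against control, where it passed the filter, from -0.011 to 0.062 (without OGP 3), and from -0.059 over all settings that gave it a value. Libraries with the same replicate number did not all deviate together (r of -0.18 to 0.32), so the numbers were not taken as pairs. The highest r was that of OGE 3 with control 3. With the replicate number as a block no member was called, and Rab27b in OGP against control had a log2 value of 0.54 (adjusted p = 0.0362), Cd81 in OGE against control -0.33 (adjusted p = 0.0470). The block ended the pass on adjusted p of Cd9 (0.0525) and Sdcbp (0.0556) in OGP against control, of Sdcbp in OGE against OGP (0.0919) and of Tsg101 in OGE against control (0.0832). The cause of these shifts was not tested. The 29 to 289 reads of Smpd3, Rab27a and Rab27b limit what could be seen of them.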
